A study of Homo sapiens with 18 samples.

Results

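The genes described here make sterols and fatty acids, or regulate that synthesis, in HK-2 cells, a human renal proximal tubular epithelial line, exposed to CsA. They were taken from a list of 31 genes, of which 18 belong to the sterol branch and 8 to the fatty acid branch. The other 5 are called regulators here, although STARD4 among them is a sterol carrier. A gene was measured where the array held a probe set annotated with its symbol alone, and its brightest such probe set was used. That gave 27 of the 31 genes, out of 19775 genes measured in this way, and 26 of them passed the filter on low values that left 10713 genes for testing. CYP51A1 and FADS1 were present only on probe sets shared with other symbols, and FDFT1 and ACSL3 were not analysed here. FADS2, a fatty acid desaturase, lay between 2.74 and 3.68 on the log2 scale on all 18 arrays, below the filter at 4, and was not tested.

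The series compared HK-2 cells exposed to CsA with cells exposed to its vehicle, called control here, for 12, 24 and 48 h. Each of the 6 groups had 3 biological replicates, numbered 1 to 3, and each replicate had 1 Affymetrix array of total RNA. CsA is the usual abbreviation of cyclosporin A, an immunosuppressant that binds cyclophilins and inhibits calcineurin and that is known to harm the kidney; no source used here gives the dose. All groups shared the same cell line, an immortalized line, and the same medium, whose listed supplements were growth factor, hydrocortisone, insulin, transferrin and selenite.

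Levels are log2 GCRMA values, so that a difference of 1 is a doubling. Array medians ranged from 2.86 to 2.92. Of 9 markers of renal and simple epithelium, 8 reached a group mean of 4, and PAX2 did not. None of 8 proximal tubule markers did, so the labelled tubular origin was not visible in those genes. Endothelial, leukocyte, podocyte and distal nephron markers with a probe set were all under 4, while 3 of 5 fibroblast markers, COL1A1, DCN and LUM, reached it and COL1A2 and PDGFRB did not. Replicate 3 stood apart from replicates 1 and 2 in all 6 groups. The SD over genes of the difference between 2 arrays of a group was 0.632 to 0.795 where replicate 3 was involved, against 0.225 to 0.494 between replicates 1 and 2. Results are therefore also given by replicate pair, meaning the CsA and the control array with the same number.

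Sterol synthesis starts from acetyl-CoA and runs through mevalonate, isoprenoids, squalene and lanosterol to cholesterol, while fatty acid synthesis draws on the same acetyl-CoA pool. Both are switched on by SREBP transcription factors, of which SREBP2 (gene SREBF2) acts mainly on sterol genes and SREBP1 (SREBF1) mainly on fatty acid genes. When the endoplasmic reticulum is poor in sterol, SCAP escorts the SREBPs to the Golgi for cleavage, and when it is rich in sterol INSIG proteins hold them back. Tubular epithelium needs cholesterol for its membranes and burns fatty acids as its main fuel.

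Promoter windows for 27 of the 31 genes were found in RefSeq (GRCh38.p14), each covering 250 bases before and 50 bases after the start, and ACAT2, FDFT1, SQLE and FASN had none in the table. Windows were searched on both strands for 5 motifs with known links to this pathway. The sterol response element core TCACNCCAC occurred in the window of 1 of the 27 genes, SREBF2, and in 1.13% of 35116 windows of all genes; a longer form of that element, which overlaps the core, was the other sterol motif searched and matched SREBF2 alone of the 27, and 0.0456% of all windows. CCAAT, the box bound by NF-Y, occurred in windows of 21 of the 27 genes (25 of their 36 windows) and in 34.6% of all windows. CACGTG, the E-box, occurred in 4 of the 27 (5 of 36 windows) and in 7.26% of all windows. GGGCGG, the core of the GC box, occurred in 26 of the 27 (32 of 36 windows) and in 45% of all windows. A gene with several windows was counted if any of them matched, so the shares of all windows compare with the counts of windows only. The 250 bases before the start are shown for SREBF2, which has the sterol response match, and for the 5 genes with a window whose values at 48 h lay farthest from control among the genes chosen for their calls, the size of their differences or as regulators. Capitals mark TCACNCCAC or CCAAT on either strand (ATTGG is CCAAT on the other strand). The windows are at chr22:41832855-41833104 (plus strand) for SREBF2, chr5:43313413-43313662 (minus strand) for HMGCS1, chr4:110198616-110198865 (minus strand) for ELOVL6, chr17:41919023-41919272 (minus strand) for ACLY, chrX:48521558-48521807 (plus strand) for EBP and chr1:155308616-155308865 (plus strand) for FDPS, each read 5′ to 3′ on the gene's own strand. For HMGCS1 and ACLY, with 2 windows each, the first one listed is shown.
SREBF2: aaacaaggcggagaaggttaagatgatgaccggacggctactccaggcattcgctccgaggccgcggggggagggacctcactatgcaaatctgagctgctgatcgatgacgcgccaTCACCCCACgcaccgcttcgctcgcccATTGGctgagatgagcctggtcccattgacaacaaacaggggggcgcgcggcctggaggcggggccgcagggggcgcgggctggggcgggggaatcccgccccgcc
HMGCS1: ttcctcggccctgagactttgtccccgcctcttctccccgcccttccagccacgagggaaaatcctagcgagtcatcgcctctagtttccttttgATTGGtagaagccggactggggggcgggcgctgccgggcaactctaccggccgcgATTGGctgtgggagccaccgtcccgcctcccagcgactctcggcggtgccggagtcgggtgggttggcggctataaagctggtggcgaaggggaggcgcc
ELOVL6: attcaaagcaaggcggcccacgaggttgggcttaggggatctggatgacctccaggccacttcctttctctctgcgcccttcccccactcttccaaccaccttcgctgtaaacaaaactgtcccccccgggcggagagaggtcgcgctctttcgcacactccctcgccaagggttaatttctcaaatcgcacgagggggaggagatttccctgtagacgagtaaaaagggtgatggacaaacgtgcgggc
ACLY: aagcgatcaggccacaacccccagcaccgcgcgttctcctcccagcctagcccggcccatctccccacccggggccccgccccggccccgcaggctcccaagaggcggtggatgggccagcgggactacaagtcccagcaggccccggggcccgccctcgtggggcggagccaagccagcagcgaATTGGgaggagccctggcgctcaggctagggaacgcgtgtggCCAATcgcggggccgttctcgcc
EBP: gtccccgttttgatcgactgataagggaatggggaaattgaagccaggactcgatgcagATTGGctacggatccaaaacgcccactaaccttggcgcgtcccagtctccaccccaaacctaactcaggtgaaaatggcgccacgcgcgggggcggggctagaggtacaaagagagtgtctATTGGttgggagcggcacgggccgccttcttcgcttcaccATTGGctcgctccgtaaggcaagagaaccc
FDPS: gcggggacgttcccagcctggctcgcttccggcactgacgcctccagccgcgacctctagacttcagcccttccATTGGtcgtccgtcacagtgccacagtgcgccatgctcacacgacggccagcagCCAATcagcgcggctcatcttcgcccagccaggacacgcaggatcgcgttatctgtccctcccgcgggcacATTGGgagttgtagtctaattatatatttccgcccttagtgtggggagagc
Within the 250 bases printed, EBP and FDPS hold 3 CCAAT boxes each, HMGCS1 and ACLY 2 each, SREBF2 1 and ELOVL6 0. These matches describe the letters only. A site with other letters, or one outside the windows, was not counted, so a gene without a match may still hold one.

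The comparison of CsA with control asked how the compound altered expression at each time. Sterol genes lay slightly above control with CsA at 12 h and below it at 48 h, whereas the fatty acid genes divided. The median difference (CsA minus control) over 16 sterol genes was 0.12 at 12 h, -0.09 at 24 h and -0.37 at 48 h, where the SD of the 3 pair medians was 0.086, 0.048 and 0.092. Over all 10713 genes the median difference was -0.01, -0.01 and 0.00. Over 5 fatty acid genes the median was 0.24, 0.18 and 0.03, with SDs of 0.156, 0.116 and 0.395. For neither branch was the median tested, since the genes were chosen. Without replicate 3 the sterol medians were 0.09, -0.08 and -0.29 and the fatty acid medians 0.34, 0.33 and 0.08. The fatty acid median at 48 h changed sign with the arrays used, being -0.23 without replicate 2 in all groups and -0.28 without control replicate 2 of 48 h.

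**Figure D1:**
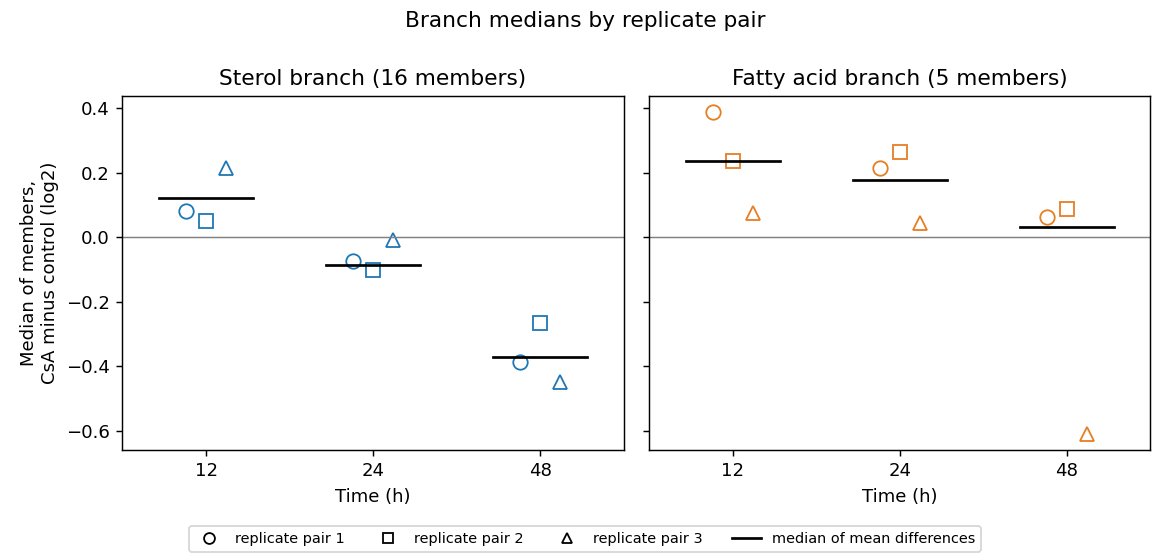
Median over the genes of each branch of the CsA minus control difference (log2, vertical axis) against time (h), for each replicate pair (open symbols); the black bar is the median of the genes' mean differences. All 3 pair medians of the sterol branch are above 0 at 12 h and below 0 at 48 h, and pair 3 of the fatty acid branch falls far below the other pairs at 48 h.

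At 12 h no gene of the set passed the test. By limma on all 18 arrays with Benjamini-Hochberg adjustment over 10713 genes, 0 of the 26 were called in either direction, as were 0 genes of all (0% higher and 0% lower), and at an unadjusted p under 0.05 the set held 0 and all genes 98 (0.915%). A second fit, in which replicate number entered as a block (the block fit), also called 0, with 0% of all genes called each way. Of the 16 sterol genes, 8 had a positive difference in all 3 pairs, against 18.9% of all genes, and 1, HMGCS1, a negative one in all 3, against 20.6%. Of 5 fatty acid genes ACLY, ACACA and SCD were positive in all 3 pairs. ACACA, the carboxylase that makes malonyl-CoA, was the 1 gene of the set whose CsA arrays all lay above the control arrays, against 3.26% of all genes.

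The largest sterol difference at 12 h was in LSS, which closes squalene epoxide into lanosterol. LSS was at 10.02, 9.92 and 10.44 on the CsA arrays (replicates 1 to 3, the order used throughout), against 9.69, 9.54 and 10.07 on the control arrays. Each CsA array was above its control partner but the groups overlapped, and the difference was 0.36 ± 0.27 (SE of the fit without the block, as for all differences below; limma adjusted p = 1). DHCR7, which makes the last reduction to cholesterol, was at 10.44, 10.25 and 10.71 with CsA against 10.25, 10.05 and 10.46 in control, with a difference of 0.21 ± 0.28 (limma adjusted p = 1). MVD, the mevalonate diphosphate decarboxylase, was at 5.63, 5.94 and 6.60 with CsA against 5.70, 5.50 and 6.34 in control, with 1 pair negative and a mean difference of 0.21 ± 0.33 (limma adjusted p = 1). Its replicate 3 was the highest in both groups.

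In the fatty acid branch the largest differences at 12 h were in SCD and FASN. SCD, the desaturase that makes oleate, was at 14.20, 14.30 and 13.27 with CsA against 13.81, 13.92 and 13.06 in control, with a difference of 0.32 ± 0.35 (limma adjusted p = 1). Replicate 3 was about a log2 unit below the others in both groups, and within each pair the CsA array was higher. FASN, the fatty acid synthase, was at 9.36, 9.08 and 8.86 with CsA against 8.82, 8.85 and 8.92 in control, with a difference of 0.24 ± 0.29 (limma adjusted p = 1) in which pair 3 was slightly negative.

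**Figure D2:**
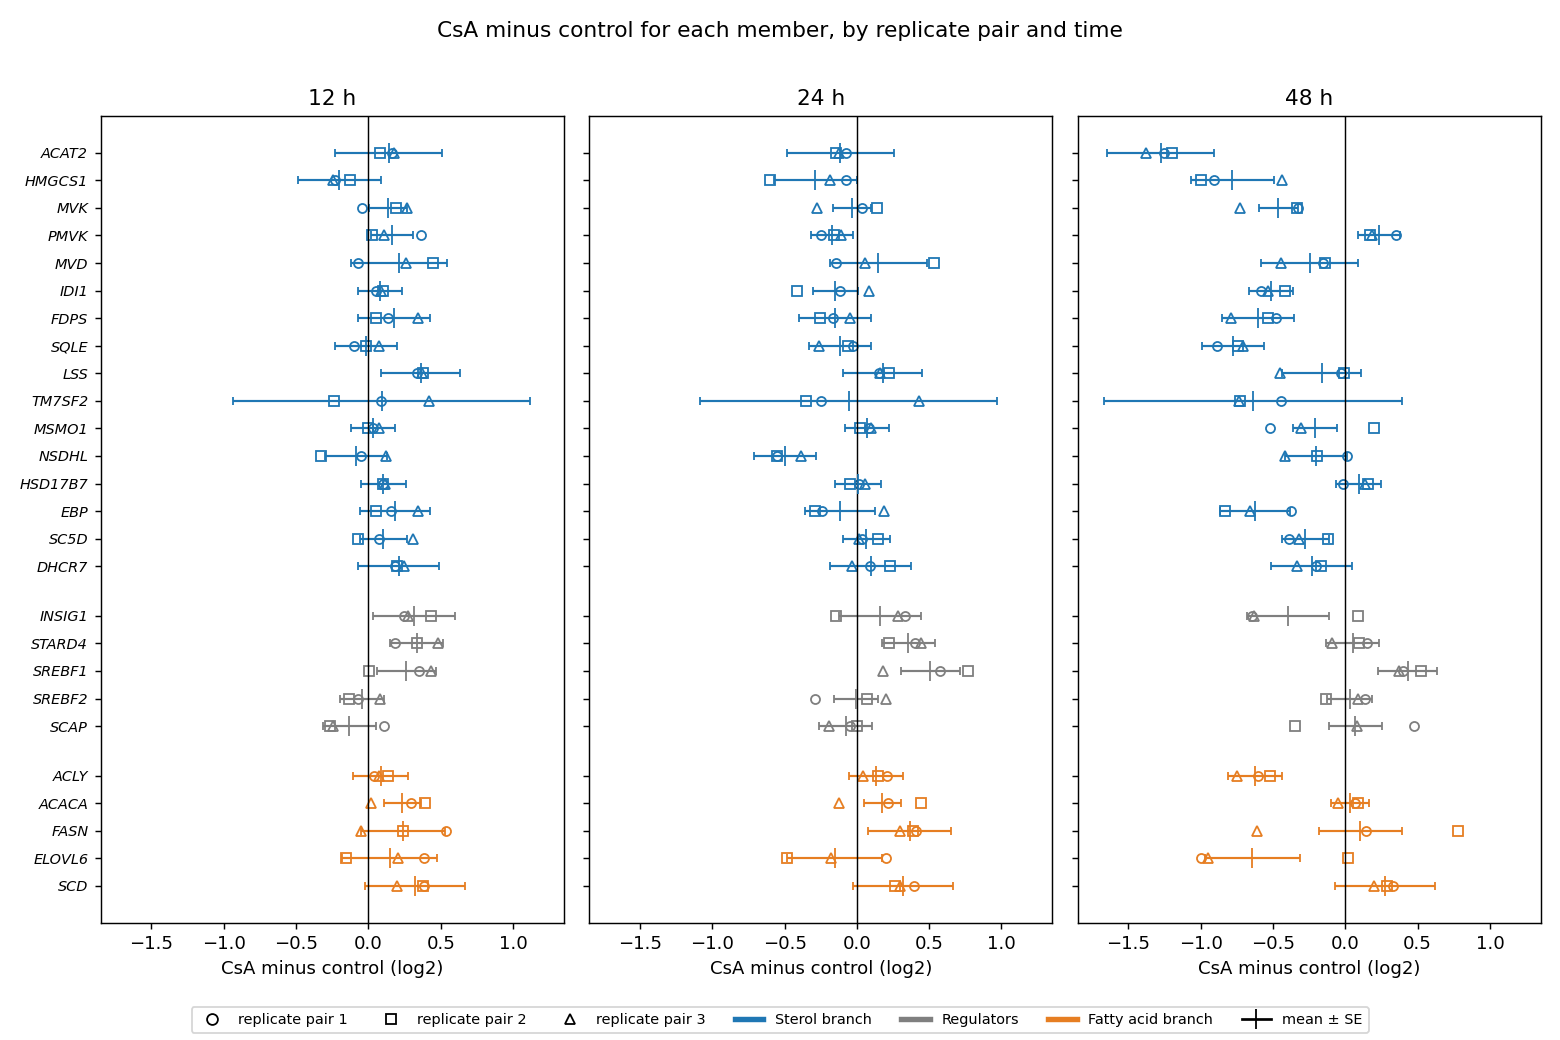
CsA minus control difference (log2, horizontal axis) of the 26 tested genes at 12, 24 and 48 h, with open symbols for the 3 replicate pairs and a bar with whiskers for the mean ± SE of the fit without the block. Most sterol genes lie right of 0 at 12 h and left of it at 48 h, ACAT2 farthest at -1.28. SREBF1 and SCD are right of 0 in all 3 pairs at each time. Other genes, such as STARD4 and FASN, are right of 0 at each time by their means only.

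At 24 h the set again held no called gene, with 0 of 26 by limma with and without the block, and 0% of all genes called higher and 0% lower without it, and 0.00933% and 0% with it. At an unadjusted p under 0.05 it held NSDHL and SREBF1, 2 genes, against 405 of all (3.78%). Of the sterol genes 6 were negative in all 3 pairs, against 23.3% of all genes, and 3 positive, against 22%. NSDHL, a dehydrogenase that removes sterol methyl groups, was at 8.73, 8.72 and 9.33 with CsA against 9.28, 9.27 and 9.72 in control, with a difference of -0.50 ± 0.21 (limma adjusted p = 0.999). All pairs were negative, though CsA replicate 3 lay above control replicates 1 and 2. HMGCS1, the synthase that precedes the rate-limiting step of the pathway, was at 11.11, 10.77 and 11.65 with CsA against 11.18, 11.38 and 11.84 in control, with a difference of -0.29 ± 0.29 (limma adjusted p = 0.999). LSS was at 9.83, 10.02 and 10.58 with CsA against 9.68, 9.79 and 10.41 in control, with a difference of 0.18 ± 0.27 (limma adjusted p = 0.999).

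The fatty acid genes with the largest differences at 24 h were again FASN and SCD. FASN was at 9.10, 9.20 and 9.48 with CsA against 8.69, 8.81 and 9.18 in control, with a difference of 0.37 ± 0.29 (limma adjusted p = 0.999). SCD was at 14.30, 14.29 and 13.53 with CsA against 13.91, 14.03 and 13.23 in control, with a difference of 0.32 ± 0.35 (limma adjusted p = 0.999). Both were higher with CsA in each pair, with groups that overlapped.

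At 48 h sterol genes were lower with CsA in most pairs, and whether any passed the test depended on the pairing. Without the block 0 of 26 were called, against 0.215% of all genes called higher and 0.224% lower, and 8 were under an unadjusted p of 0.05, against 16% of all genes. With the replicate block 7 were called, all lower: ACAT2, EBP, FDPS, IDI1, SQLE and MVK of the sterol branch and ACLY of the fatty acid branch, while that fit called 6% of all genes lower and 4.82% higher. A block fit on the 48 h arrays alone also called 7 lower, against 4.92% of all genes lower and 2.81% higher; HMGCS1 and TM7SF2 were among them in place of EBP and MVK. Of the 16 sterol genes 12 were negative in all 3 pairs, against 26.2% of all genes. The CsA arrays all lay below the control arrays for 6 of them (ACAT2, HMGCS1, MVK, IDI1, EBP and SC5D), against 6.77% of all genes, and all above for PMVK, against 8.25%. In bulk RNA such as this, fewer cells of a kind and less RNA per cell cannot be told apart.

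In order along the pathway, ACAT2, the cytosolic thiolase that joins acetyl-CoA units, had the largest difference of the set. It was at 9.57, 8.84 and 9.86 on the CsA arrays of 48 h, against 10.83, 10.04 and 11.24 on the control arrays. Every CsA array lay below every control array, and pairs differed by -1.26, -1.20 and -1.38, so that the mean difference was -1.28 ± 0.37 (limma adjusted p = 0.111, or 0.00689 in the block fit). The call for ACAT2 with the block was kept when any 1 of the 6 arrays of 48 h was left out, at an adjusted p of 0.00163 to 0.0493, and was lost when replicate 2 or replicate 3 was left out in all groups. HMGCS1 was at 9.62, 9.45 and 9.43 with CsA against 10.53, 10.45 and 9.87 in control, with no overlap and a difference of -0.78 ± 0.29 (limma adjusted p = 0.2, or 0.064 in the block fit). Without replicate 3 the difference of HMGCS1 passed (adjusted p = 0.0366 without the block and 0.0354 with it), the 1 call of the set in either fit. MVK, the mevalonate kinase, was at 7.43, 7.15 and 7.19 with CsA against 7.75, 7.48 and 7.92 in control, with a difference of -0.46 ± 0.13 (limma adjusted p = 0.11, or 0.0387 in the block fit).

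IDI1, the isomerase that makes the reactive isoprenoid unit, was at 11.39, 11.13 and 10.89 with CsA against 11.97, 11.55 and 11.42 in control. Its groups did not overlap, and the difference was -0.51 ± 0.15 (limma adjusted p = 0.123, or 0.0286 in the block fit). FDPS, which joins these units to farnesyl diphosphate, was at 11.93, 11.46 and 12.10 with CsA against 12.41, 12.00 and 12.89 in control, with overlap across replicates but every pair negative. The difference of FDPS was -0.60 ± 0.25 (limma adjusted p = 0.256, or 0.0156 in the block fit). SQLE, the squalene epoxidase, was at 11.33, 11.11 and 10.58 with CsA against 12.22, 11.85 and 11.29 in control, with a difference of -0.78 ± 0.21 (limma adjusted p = 0.099, or 0.0336 in the block fit). Pairs of SQLE were alike at -0.88, -0.74 and -0.71 although replicate 3 was the lowest of each group.

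EBP, the isomerase that shifts the sterol ring double bond, was at 10.47, 9.81 and 10.47 with CsA against 10.85, 10.65 and 11.13 in control. No CsA array reached a control array, and the difference was -0.62 ± 0.24 (limma adjusted p = 0.225, or 0.0111 in the block fit). With the block, the calls of MVK, IDI1, FDPS, SQLE and EBP were each lost when CsA replicate 2 of 48 h was left out. Over the 6 arrays of 48 h left out in turn the highest adjusted p was 0.069 for EBP, 0.096 for FDPS, 0.134 for IDI1, 0.154 for MVK and 0.158 for SQLE. The remaining sterol genes at 48 h had differences from -0.64 for TM7SF2, a sterol reductase, to 0.23 for PMVK, the phosphomevalonate kinase, and none passed the test with the block over all arrays. PMVK was at 7.92, 8.04 and 8.02 with CsA against 7.57, 7.87 and 7.84 in control, the reverse of its neighbours MVK and MVD in the pathway (limma adjusted p = 0.491, or 0.173 in the block fit).

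The fatty acid branch at 48 h held 1 called gene. ACLY, the lyase that supplies cytosolic acetyl-CoA to both branches, was at 11.90, 11.26 and 11.20 with CsA against 12.51, 11.78 and 11.94 in control. Every pair was negative, at -0.60, -0.52 and -0.75, and the difference was -0.62 ± 0.19 (limma adjusted p = 0.127, or 0.0399 in the block fit). The call for ACLY was lost without CsA replicate 2, CsA replicate 3, control replicate 1 or control replicate 3 of 48 h, at adjusted p up to 0.185. ELOVL6, an elongase of saturated fatty acids, was at 8.33, 7.77 and 7.30 with CsA against 9.33, 7.75 and 8.25 in control, with a difference of -0.64 ± 0.33 (limma adjusted p = 0.361, or 0.175 in the block fit). Pairs 1 and 3 of ELOVL6 were at -1.0015 and -0.95 and pair 2 at 0.02.

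FASN did not follow ACLY. At 48 h its pairs were at 0.14, 0.78 and -0.61, around a mean difference of 0.10 ± 0.29 (limma adjusted p = 0.928). ACACA differed by 0.03 ± 0.13 (limma adjusted p = 0.954). SCD was at 14.35, 14.06 and 13.53 with CsA against 14.02, 13.77 and 13.33 in control, with a difference of 0.27 ± 0.35 (limma adjusted p = 0.791, or 0.124 in the block fit) that was positive in each pair. The 3 other probe sets of SCD, dimmer than the one used, differed by 0.51 to 0.87 in the same direction at 48 h.

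**Figure D3:**
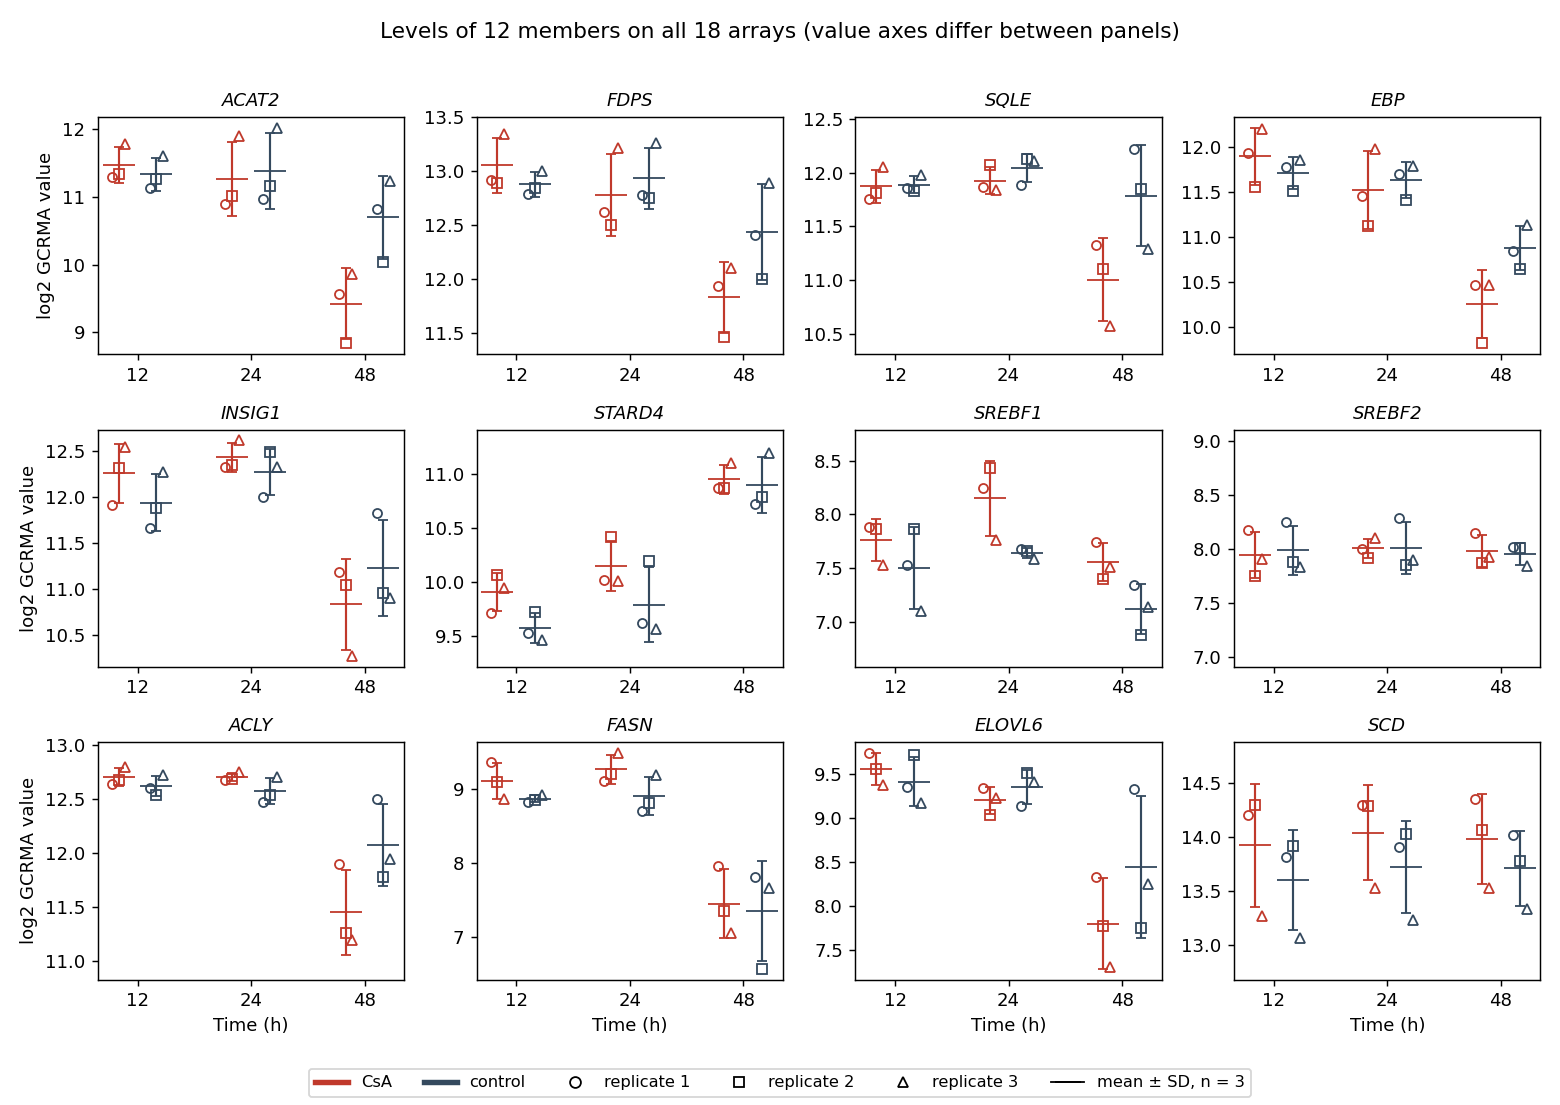
Level (log2 GCRMA value, vertical axis, with its own range in each panel) of 12 genes at 12, 24 and 48 h, with CsA in red to the left of control in dark blue; symbols are replicates and bars the mean ± SD over 3 arrays. ACAT2, EBP and SQLE are lower with CsA at 48 h, while FASN falls to about the same level with CsA and in control, and SREBF2 keeps a level near 8 throughout.

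The regulators did not move as a block. INSIG1, which retains SCAP in the endoplasmic reticulum and is itself an SREBP target, was at 11.91, 12.32 and 12.55 with CsA against 11.66, 11.89 and 12.27 in control at 12 h, with a difference of 0.32 ± 0.28 (limma adjusted p = 1). At 24 h INSIG1 was at 12.33, 12.35 and 12.62 with CsA against 12.00, 12.49 and 12.33 in control, and at 48 h at 11.19, 11.04 and 10.27 with CsA against 11.83, 10.95 and 10.90 in control. Its differences there were 0.16 ± 0.28 (limma adjusted p = 0.999) and -0.40 ± 0.28 (limma adjusted p = 0.568), and pair 2 had the opposite sign to the others at both times.

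STARD4, a carrier that moves cholesterol between membranes, was at 9.71, 10.06 and 9.94 with CsA against 9.53, 9.72 and 9.46 in control at 12 h, and at 10.02, 10.42 and 10.01 with CsA against 9.62, 10.19 and 9.56 in control at 24 h. All 6 of these pairs were positive, with differences of 0.34 ± 0.18 (limma adjusted p = 1) and 0.36 ± 0.18 (limma adjusted p = 0.999). At 48 h STARD4 was at 10.87, 10.88 and 11.11 with CsA against 10.72, 10.78 and 11.19 in control, with a difference of 0.05 ± 0.18 (limma adjusted p = 0.95).

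SREBF1 was at 7.89, 7.87 and 7.54 with CsA against 7.53, 7.86 and 7.10 in control at 12 h. At 24 h it was at 8.25, 8.43 and 7.77 with CsA against 7.68, 7.66 and 7.59 in control, and at 48 h at 7.75, 7.41 and 7.51 with CsA against 7.35, 6.88 and 7.14 in control. The CsA arrays lay above all control arrays at 24 h, where 4.56% of all genes did so, and again at 48 h. The differences of SREBF1 were 0.26 ± 0.20, 0.51 ± 0.20 and 0.43 ± 0.20 at 12, 24 and 48 h (limma adjusted p = 1, 0.999 and 0.317; 0.116 with the block at 48 h). SREBF1 and SCD were the 2 genes of the set positive in all 9 pairs, against 3.47% of all genes, and HMGCS1 was the 1 gene negative in all 9, against 4.42%. The dimmer probe set of HMGCS1 differed by 0.08 at 12 h, -0.08 at 24 h and -0.70 at 48 h.

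SREBF2 lay between 7.74 and 8.29 on all 18 arrays. It was at 8.17, 7.74 and 7.91 with CsA against 8.25, 7.88 and 7.83 in control at 12 h, and at 8.15, 7.87 and 7.92 with CsA against 8.01, 8.005 and 7.84 in control at 48 h. At 24 h SREBF2 was at 7.995, 7.92 and 8.10 with CsA against 8.29, 7.85 and 7.90 in control. Its differences were -0.04 ± 0.15, -0.01 ± 0.15 and 0.03 ± 0.15 (limma adjusted p = 1, 0.999 and 0.969). A dimmer probe set of SREBF2 differed by -0.42, -0.03 and 0.26 in the same order, and another by 0.11, 0.05 and 0.04. SCAP was at 7.54, 7.30 and 7.28 with CsA against 7.43, 7.57 and 7.52 in control at 12 h. It was at 7.44, 7.64 and 7.33 with CsA against 7.48, 7.63 and 7.53 in control at 24 h, and at 7.64, 7.75 and 7.48 with CsA against 7.16, 8.11 and 7.40 in control at 48 h. The differences of SCAP were -0.13 ± 0.19, -0.08 ± 0.19 and 0.07 ± 0.19 (limma adjusted p = 1, 0.999 and 0.925), with pairs of both signs at each time.

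The change of sign between 12 and 48 h was examined for each gene. For ACAT2, IDI1, FDPS, LSS, EBP, DHCR7 and ACLY, 7 genes of 26, all 3 pairs were positive at 12 h and all 3 negative at 48 h, against 2.67% of all genes. By mean difference alone 14 genes were positive at 12 h and negative at 48 h, against 18.2% of all genes: 11 of the sterol branch, INSIG1, ACLY and ELOVL6. The positive differences at 12 h in these genes were small, from 0.08 for IDI1 to 0.36 for LSS among the 7, and none passed the test. At 12 h a dimmer probe set each of EBP and LSS was lower with CsA (-0.30 and -0.15), while another of each was higher (0.17 and 0.37). The change of the CsA effect itself, tested as an interaction, was called for 0 of 26 genes from 12 to 48 h (0.0373% of all genes called higher and 0% lower), with 7 genes under an unadjusted p of 0.05 against 4.72% of all genes. With the block it was again called for 0 (0.028% of all genes higher and 0% lower), with 10 under an unadjusted p of 0.05 against 12.3% of all genes. From 24 to 48 h it was called for 0 with or without the block (0.0373% of all genes higher and 0% lower without it, 0.0373% and 0.00933% with it). Without the block 4 genes were under an unadjusted p of 0.05, against 5.68% of all genes, and with it 7, against 13.4%. From 12 to 24 h it was called for 0 in both fits (0% of all genes each way). There 0 genes were under an unadjusted p of 0.05 without the block, against 0.812% of all genes, and 1 with it, against 2.45%.

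The interaction from 12 to 48 h was -1.42 ± 0.52 for ACAT2 (limma adjusted p = 1, or 0.219 in the block fit), -0.81 ± 0.34 for EBP (limma adjusted p = 1, or 0.219 in the block fit) and -0.78 ± 0.35 for FDPS (limma adjusted p = 1, or 0.232 in the block fit). These 3 changes were each called with the block when CsA replicate 1 of 48 h was left out, at adjusted p of 0.0165 for ACAT2, 0.0157 for EBP and 0.031 for FDPS, and in no other fit that left out 1 array or 1 replicate number. MVK, at -0.60 ± 0.19 (limma adjusted p = 0.995, or 0.284 in the block fit), had the smallest p of the set without the block.

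Levels also moved with time in culture in both treatments. From 24 to 48 h, 14 of the 26 genes fell and 2 rose in CsA cultures (limma, no block), against 12.3% and 12.9% of all genes. In control cultures 5 fell and 1 rose, against 7.16% and 7.33%. With the block 17 fell and 3 rose in CsA cultures, against 20.5% and 21.3% of all genes, and 13 fell and 2 rose in control cultures, against 16% and 16.6%. From 12 to 24 h 0 genes of the set were called in CsA or control cultures in either fit, and of all genes 0% were called each way without the block. With it the shares were 0.103% higher and 0.028% lower in CsA cultures and 0% each way in control cultures. From 12 to 48 h 12 fell and 2 rose in CsA cultures (16.3% of all genes each way), and 3 fell and 2 rose in control cultures (9.37% and 8.49%); the block made these 16 and 2 (24.4% each way), and 8 and 3 (18.7% and 18%). The CsA changes over time share the 48 h CsA arrays with the CsA minus control difference, so they are no separate evidence for it.

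FASN had the largest fall of the set in control. It changed by -1.81 ± 0.29 in CsA cultures (limma adjusted p = 0.000623) and by -1.55 ± 0.29 in control cultures (limma adjusted p = 0.00406) from 24 to 48 h, and averaged 7.45 ± 0.46 and 7.35 ± 0.67 there (SD, n = 3). ACAT2 fell by 1.84 ± 0.37 in CsA cultures (limma adjusted p = 0.00257) and had a change of -0.68 ± 0.37 in control cultures (limma adjusted p = 0.246, or 0.021 in the block fit). HMGCS1 fell by 1.68 ± 0.29 in CsA cultures (limma adjusted p = 0.000943) and fell by 1.18 ± 0.29 in control cultures (limma adjusted p = 0.0161).

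INSIG1 fell by 1.60 ± 0.28 in CsA cultures (limma adjusted p = 0.0012) and fell by 1.05 ± 0.28 in control cultures (limma adjusted p = 0.0262). ACLY fell by 1.26 ± 0.19 in CsA cultures (limma adjusted p = 0.000455) and had a change of -0.50 ± 0.19 in control cultures (limma adjusted p = 0.0933, or 0.0442 in the block fit). SQLE fell by 0.92 ± 0.21 in CsA cultures (limma adjusted p = 0.00649) and had a change of -0.26 ± 0.21 in control cultures (limma adjusted p = 0.474, or 0.376 in the block fit). A fall called in CsA cultures and not in control was not by itself a difference between them; that is the interaction from 24 to 48 h above, which passed for none.

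The 2 genes that rose in CsA cultures from 24 to 48 h without the block were STARD4 and the sterol reductase HSD17B7, and the block added PMVK. STARD4 rose by 0.80 ± 0.18 in CsA cultures (limma adjusted p = 0.006) and by 1.11 ± 0.18 in control cultures (limma adjusted p = 0.00211). HSD17B7 rose by 0.58 ± 0.16 in CsA cultures (limma adjusted p = 0.0154) and had a change of 0.49 ± 0.16 in control cultures (limma adjusted p = 0.0503, or 0.00282 in the block fit). TM7SF2 had changes of 0.27 ± 1.03 in CsA cultures and 0.86 ± 1.03 in control cultures (limma adjusted p = 0.89 and 0.638), neither called in either fit. SCAP had changes of 0.16 ± 0.19 and 0.0089 ± 0.19 in the same order (limma adjusted p = 0.598 and 0.983).

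**Figure D4:**
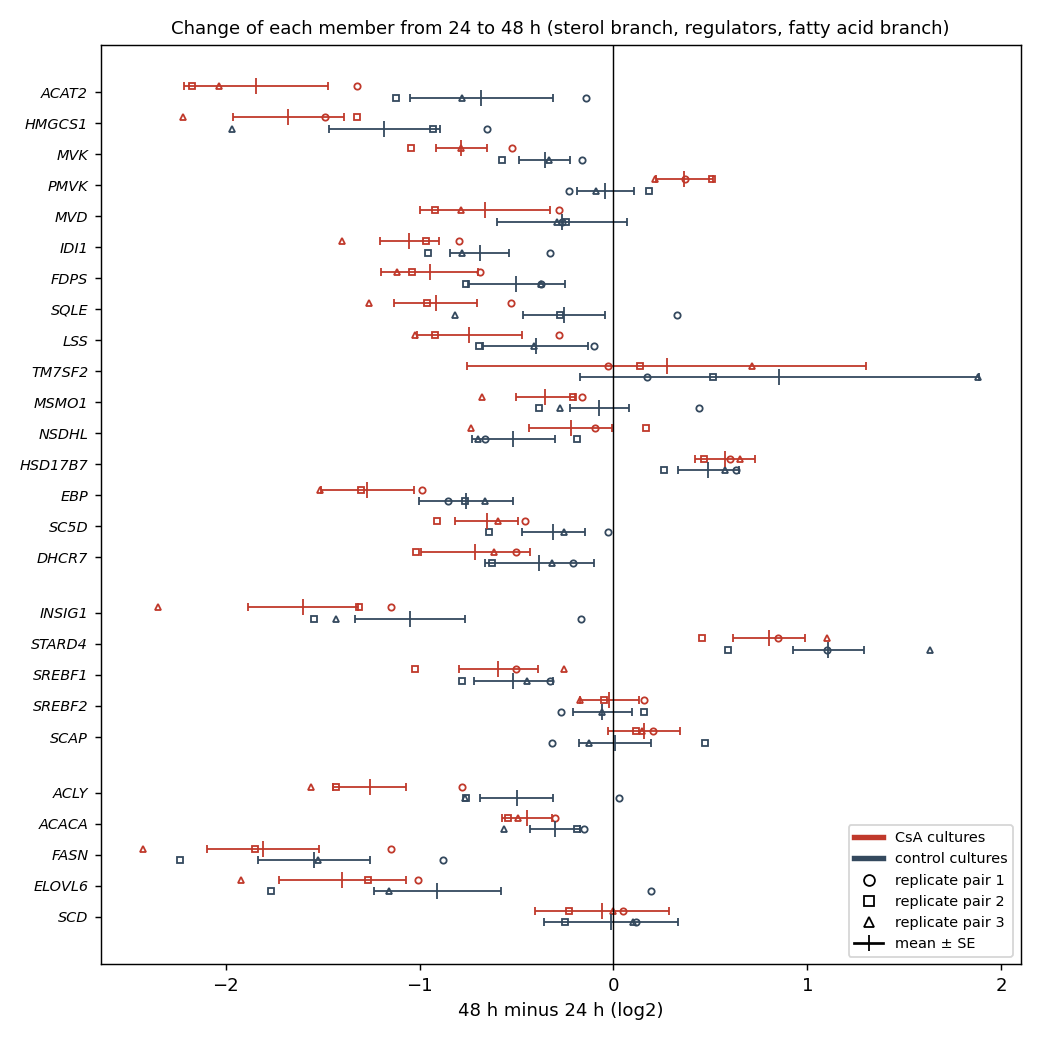
Change from 24 to 48 h (log2, horizontal axis) of the 26 tested genes in CsA cultures (red, upper line of each gene) and control cultures (dark blue, lower line), with symbols for the replicates and a bar with whiskers for the mean ± SE of the fit without the block. Most genes lie left of 0 in both treatments and farther left with CsA; STARD4, HSD17B7, TM7SF2 and SCAP have means right of 0 in both, TM7SF2 with the widest whiskers.

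Replicate 3 lay on one side of the mean of replicates 1 and 2 in all 6 groups for 10 of the 26 genes. That share was close to that of all genes, of which 22.5% were lower and 19% higher there. Compared with the mean of replicates 1 and 2 of the same group, replicate 3 was lower for TM7SF2 in 6 of 6 groups, by a median of -2.24, and for SCD in 6 of 6, by a median of -0.75. TM7SF2 was at 8.09, 7.75 and 4.98 on the CsA arrays and 7.996, 7.98 and 4.56 on the control arrays of 12 h, and the SE of its differences was accordingly large, at 1.03. For 8 of the 16 sterol genes (ACAT2, PMVK, MVD, FDPS, LSS, HSD17B7, EBP and DHCR7) replicate 3 was higher in 6 of 6 groups, against 19% of all genes. Their medians ran from 0.18 to 0.74. No source used here says what set replicate 3 apart.

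**Figure D5:**
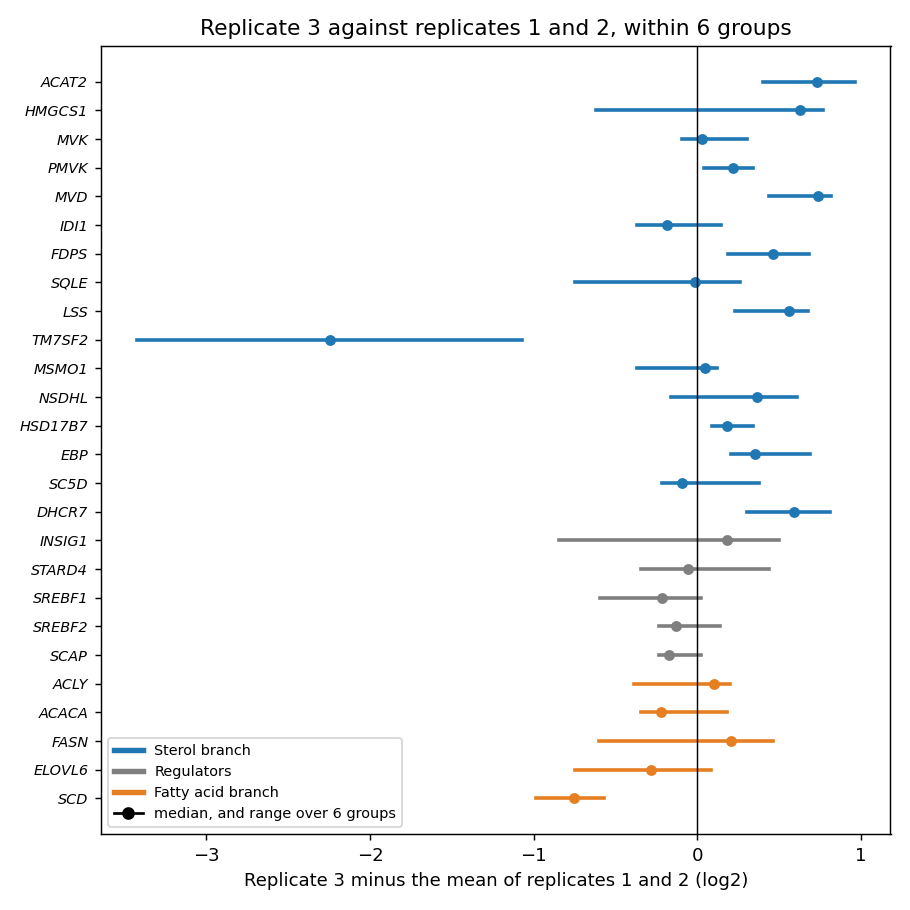
Level in replicate 3 minus the mean of replicates 1 and 2 of the same group (log2, horizontal axis) for the 26 tested genes, with the median over 6 groups as a point and the range over the groups as a line. TM7SF2 stands at -2.24 and SCD at -0.75, and 8 sterol genes lie wholly right of 0.

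Neighbouring pathways were followed through 6 lists of related genes. Without the block, 0 genes of any of these lists were called at 12, 24 or 48 h, and with it 0 at 12 and 24 h. At 48 h the block fit called 6% of all genes lower and 4.82% higher, and a list with 1 called gene of about 10 is near those shares. With it the isoprenoid side branches had 1 of 10 tested genes called lower, PDSS1, which makes the ubiquinone side chain, and 0 higher. PDSS1 was at 4.55, 4.12 and 4.42 with CsA against 5.86, 4.61 and 5.71 in control, close to the filter at 4, a difference of -1.03 ± 0.41 (limma adjusted p = 0.239, or 0.0279 in the block fit). The list of SREBP processing and sterol-regulated turnover had 0 of 8 called; its largest difference was in ERLIN2, at 0.23 ± 0.22 (limma adjusted p = 0.693, or 0.283 in the block fit).

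Sterol transport, efflux and LXR genes had a positive difference at 12 h in 12 of 12 tested genes, with a median of 0.09, where 53.3% of all genes had a negative one. At 48 h 7 of 12 were positive, with a median of 0.17, and 1 was called higher and 1 lower with the block, each a share near that of all genes. ABCA1, which exports cholesterol, was at 10.04, 10.13 and 10.32 with CsA against 9.70, 9.31 and 9.66 in control, with no overlap and a difference of 0.60 ± 0.23 (limma adjusted p = 0.216, or 0.0217 in the block fit). TMEM97, a sterol-regulated membrane protein, was at 11.19, 10.35 and 10.39 with CsA against 11.92, 11.62 and 11.17 in control, with a difference of -0.93 ± 0.24 (limma adjusted p = 0.0838, or 0.00689 in the block fit).

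Of 15 tested genes of fatty acid supply, activation and elongation 4 were called lower and 1 higher at 48 h with the block, against 6% and 4.82% of all genes, around a median of -0.22. The lower ones were ACSL4, an acyl-CoA synthetase, at -1.20 ± 0.76 (limma adjusted p = 0.495, or 0.0125 in the block fit), SCD5, a desaturase, at -1.25 ± 0.70 (0.419 and 0.0316), HACD3, a dehydratase of elongation, at -0.54 ± 0.21 (0.232 and 0.00976), and SLC25A1, the mitochondrial citrate carrier, at -0.44 ± 0.20 (0.298 and 0.0338). ME1, the malic enzyme that supplies NADPH, was at 10.51, 10.92 and 10.82 with CsA against 10.04, 10.16 and 10.61 in control, with a difference of 0.48 ± 0.19 (limma adjusted p = 0.226, or 0.0206 in the block fit). The wide errors of ACSL4 and SCD5 without the block stood beside a spread of over 2 log2 units between control replicates of each gene at 48 h.

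Glycerolipid assembly had 0 of 8 tested genes called. Its largest difference was in DGAT2, which makes triglyceride, at 4.95, 4.20 and 2.58 with CsA against 6.90, 5.08 and 5.08 in control, or -1.78 ± 0.62 (limma adjusted p = 0.176, or 0.0817 in the block fit). Fatty acid oxidation had 1 of 11 called lower with the block, against 6% of all genes: CPT1A, the carnitine transferase that admits fatty acids to mitochondria. CPT1A was at 6.42, 6.29 and 6.88 with CsA against 6.90, 6.95 and 7.50 in control, with a difference of -0.59 ± 0.19 (limma adjusted p = 0.143, or 0.0458 in the block fit). At 24 h 10 of the 11 oxidation genes had differences below 0, as did 52% of all genes, and the median of the list was -0.15.

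Fibroblast markers were also lower with CsA at 48 h by their means. For the 3 that reached 4 the mean differences there were below 0, their median being -0.50, and 0 of the 3 passed the test with or without the block. The summed level of all 5 fibroblast markers on the log2 scale ranged from 9.10 to 11.26 over the CsA arrays and from 9.83 to 12.01 over the control arrays of 48 h, from 11.10 to 11.57 and 11.24 to 11.36 at 24 h, and from 11.30 to 11.38 and 11.22 to 11.42 at 12 h in the same order. Of the 8 tested markers of renal and simple epithelium, 0 were called without the block at 48 h and 3 with it, 1 higher and 2 lower. CDH1, E-cadherin, was at 9.17, 9.23 and 5.26 with CsA against 8.46, 8.76 and 3.86 in control, with a difference of 0.86 ± 1.91 (limma adjusted p = 0.905, or 0.0126 in the block fit). CDH2, N-cadherin, differed by -0.40 ± 0.14 (limma adjusted p = 0.163, or 0.0327 in the block fit). CDH16, the kidney cadherin, differed by -1.05 ± 0.84 (limma adjusted p = 0.62, or 0.0332 in the block fit). The summed level of all 9 epithelial markers on the log2 scale ranged from 14.16 to 14.78 over the CsA arrays and from 14.07 to 14.55 over the control arrays of 48 h. The part of these fibroblast and epithelial markers in the result was not tested.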

How the data were processed

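RNA of HK-2 cells from 18 cultures in 6 groups was measured on Affymetrix arrays, 1 array each. The authors' deposited log2 values were made with GCRMA, per the submitters' processing notes, which give no version. No label states the log base, and the range of the values was read as log2. Of 54675 probe sets, the platform annotation gave 41091 1 gene symbol and 1801 more than 1; 62 were array controls and 11721 stayed unnamed here. A gene was represented by its brightest probe set on average, and genes whose highest group mean reached 4 were tested. The number of arrays limits the precision, and GCRMA compresses differences near background.

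R 4.3.3 and limma 3.58.1 (lmFit and eBayes) were used to test differences on all 18 arrays with a term per group. Benjamini-Hochberg adjustment ran over 10713 genes, with a threshold of 0.05. Only the fit without the block was tried on simulated data, which held no effect of replicate number. The block fit was not tried in that way. The groups share replicate numbers. In every pair of groups, same-numbered arrays deviated from their group means together (correlation 0.277 or more), and for CsA and control of one time it was 0.546 to 0.942. As replicate 3 stood apart in all 6 groups, such correlations can arise without pairing of replicates 1 and 2, and cannot show it. By correlation of levels, 14 of 18 arrays were closest to the same number in the other treatment of their time. The numbers were read as pairs, which the labels do not say. Pair counts and block calls rest on that reading. Values of the block fit, with replicate number as a term, stand beside results whose call it changes or whose count it moves by over 1.5 times. A pair difference is the CsA minus the control array of a number. Labels call the replicates biological, without saying how cultures were separated. In the fit without the block, p-values measure the spread between replicates. In the block fit they measure the spread left after the differences between replicate numbers were taken out.

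The genes, branches and related lists were chosen with earlier results of these data known. Genes given by array were those called with or without the block in a CsA comparison, the 3 sterol and 2 fatty acid genes with the largest differences at each time, and the 5 regulators; others were added to show a pattern named beside them. From each related list, called genes were named, or otherwise the gene with the largest difference at 48 h. The genes of the time course and of replicate 3, and PMVK, ACACA and DGAT2's array values, were chosen after their values were seen. Promoter sequences are from RefSeq, GRCh38.p14. Alternatives were the block, that block on the arrays of a time, no filter or a filter of 5, a floor of 4, quantile normalization, the mean of a gene's probe sets, and leaving out arrays or replicate numbers; leaving out arrays within the block fit was chosen after seeing the data. Python 3.11.15, pandas 2.3.3 and matplotlib 3.10.9 made tables and figures.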

Additional observations from a re-analysis of the deposited data

Results flagged for a closer look

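For 9 genes the CsA minus control difference had one sign in all 3 replicate pairs at one time and the opposite sign in all 3 pairs at another. From 12 to 48 h the difference changed by -1.42 for ACAT2, -0.59 for IDI1, -0.78 for FDPS, -0.52 for LSS, -0.81 for EBP, -0.44 for DHCR7 and -0.71 for ACLY, in each case from positive to negative. From 12 to 24 h it changed by -0.25 for ACAT2, -0.34 for PMVK and -0.33 for FDPS, also from positive to negative. From 24 to 48 h it changed by -0.34 for LSS, -0.34 for SC5D and -0.76 for ACLY from positive to negative, and by 0.41 for PMVK from negative to positive. The pattern of signs was not tested. Positive at 12 h and negative at 48 h in all 3 pairs held for 2.67% of all genes. For the other changes of sign no share of all genes was counted, so the 9 genes cannot be called many or few. The change in the difference was tested for each gene as an interaction with limma, and with all arrays it passed for none of these 14 changes, with or without the replicate block; the smallest adjusted p was 0.219 with the block, for ACAT2 and EBP from 12 to 48 h.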

How the results depend on the processing

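The replicate block changed 3 counts of genes called at an adjusted p under 0.05 by over 1.5 times. It called 7 genes of the set at 48 h, as did a block fit restricted to the 48 h arrays, where the fit without it called 0; it called 15 in control cultures from 24 to 48 h, against 6 without it, and 11 from 12 to 48 h, against 5. Without a filter on low values the last count was 2. The block moved none of the other 9 counts of called genes past that limit; counts at an unadjusted p stand beside each interaction. In single genes given by array, 222 of 238 values under alternatives that left out no array kept their sign and their side of the threshold, 13 passed the threshold only with a block, and 3 changed sign: LSS at 24 h to -0.0501 with the mean of its probe sets, and SREBF2 at 24 h to 0.0046 with quantile normalization and 0.0047 with the mean of its probe sets.

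With arrays or replicate numbers left out, with or without the block, 0 to 7 genes were called at 48 h, 0 to 3 for the change of the CsA effect from 12 to 48 h and 0 to 2 for that from 24 to 48 h. Over time, 8 to 20 were called in CsA cultures from 24 to 48 h, and in control cultures 1 to 14 from 24 to 48 h and 1 to 12 from 12 to 48 h. Without the block, leaving out CsA replicate 1 of 48 h called 4 genes at 48 h, control replicate 2 called 2, and control replicate 3 or replicate number 3 called 1; with it, the genes called numbered 1 without CsA replicate 2, 2 without control replicate 1, 3 without CsA replicate 3 or replicate number 1, and 0 without replicate number 2. Without replicate number 3 it called 1, HMGCS1, which was not among the 7. The counts over time were lowest without replicate number 2. The sterol median ranged from 0.0325 (without CsA replicate 3) to 0.17 at 12 h, -0.16 to 0.0156 (without control replicate 3) at 24 h and -0.50 to -0.29 at 48 h, and the fatty acid median from 0.10 to 0.33 at 24 h and from -0.28 (without control replicate 2) to 0.15 (without CsA replicate 3) at 48 h. Single genes that changed sign were MVD (-0.0612 to 0.46), SREBF2 (-0.16 to 0.0863) and SCAP (-0.27 to 0.0017) at 12 h. At 24 h they were LSS (-0.0392 to 0.41), INSIG1 (-0.0027 to 0.31) and SREBF2 (-0.11 to 0.13), and at 48 h STARD4 (-0.10 to 0.23), SREBF2 (-0.0558 to 0.12) and SCAP (-0.14 to 0.34). The cause of these shifts was not tested. Levels near background limit TM7SF2 in replicate 3, PDSS1 and DGAT2.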
